A study of Mus musculus with 9 samples.

Results

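The comparison described here is that of BV-2 cells given lipopolysaccharide (LPS) together with β-hydroxybutyrate (BHB) and BV-2 cells given LPS alone, over every gene of the deposited table. BV-2 is an immortalized mouse microglial line, so all libraries come from 1 cell line in culture. The members were taken by their labels and make up 6 of the 9 libraries of the series. The Medium group (n = 3) received LPS, which the study's methods give at 1 μg/mL, and the BHB group (n = 3) received the same LPS with R-3-hydroxybutyric acid, given there at 1.5 mM. The remaining 3 libraries, the Control group, carry phosphate-buffered saline as their treatment label, which the study also names as the vehicle beside LPS without BHB, and are printed here as the level without LPS. The sources used here do not give the time from exposure to RNA extraction. The study asked how the main ketone body of a ketogenic diet changes the response of microglia to an inflammatory stimulus, and the values below describe that change in gene families other than cytokines, sirtuins and glycolysis.

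LPS, a component of the outer membrane of Gram-negative bacteria, binds Toll-like receptor 4 on microglia. One arm of its signal runs through NF-κB and AP-1 to inflammatory genes. The other runs through IRF3 to type I interferon, which acts back on the cell through STAT factors and IRF9 to raise antiviral genes. BHB enters cells through monocarboxylate transporters, is oxidized in mitochondria after conversion to acetoacetate, binds the receptor encoded by Hcar2, and is known to inhibit class I histone deacetylases.

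Totals ranged from 26755935 to 32767278 counts in Medium, from 27905139 to 30996141 in BHB and from 23411672 to 28746863 in Control, and levels are given as CPM (counts per 1000000 of the library) scaled by TMM, with replicates 1, 2 and 3 in that order. The table holds 12413 genes, of which 10413 passed edgeR's filter on low counts and were tested. Of the markers of microglia and macrophages, 14 of 16 were in the table, and their summed level was 2930 to 3430 counts per 1000000 of the library in Medium and 4980 to 5380 in BHB. Of the 13 that were tested, 10 were higher and 2 lower in BHB. Astrocyte markers summed to at most 0.609 of the same unit in any library and those of T, B and NK cells to at most 0.417. Oligodendrocyte markers summed to 20.9 to 25.5 in Medium and 34.6 to 38.4 in BHB (2 of 3 tested higher and 1 lower), and neuron markers to 9.42 to 15.8 and 22.0 to 25.4 (1 of 2 higher). The 3 tested endothelial markers, Kdr, Vwf and Flt1, were higher in BHB, with a summed level of 307 to 350 against 103 to 136 in Medium and 448 to 462 in Control, and the part of these cell types' markers in the other results was not tested. The call of Vwf was lost when any BHB library or Medium replicate 1 or 2 was left out (adjusted p from 0.0663 to 0.157) and with only the BHB and Medium libraries in the fit (0.0656). Medium replicate 3 stood apart from the other Medium libraries, its counts differing from theirs with a chi-square of 32.7 and 28.8 for each degree of freedom where theirs gave 4.31, and for many genes that fell, among them Hspa5, Manf, Fth1, Mt1 and Axl, it lay nearest to BHB. Counts without it are given where they differ by over 1.5 times. Several genes below share exon bases with another annotated gene, so part of their counts may be that gene's. Such overlaps lie on the same strand for 15 of the named genes, among them Cfb, where Gm20547 covers 2246 of 2825 exon bases, S100a4, Tuba1b, Rtp4 and Eef1a1, and on the opposite strand for Bnip3, Ndrg1, Csf1r, Manf, Rbbp6 and Usp18. Positions of genes are those of GENCODE M21.

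With BHB, 6964 genes were called (66.9%), 3461 higher and 3503 lower, by edgeR's quasi-likelihood test at a Benjamini-Hochberg adjusted p of 0.05. The directions take 33.2% and 33.6% of all tested genes, and each count of a gene family below is read against those shares. Most of the changes were small. Of the called genes, 81.0% differed by less than 2-fold, and their median absolute log2 fold change was 0.53. A change of at least 2-fold was reached by 806 higher genes (7.74% of those tested) and 520 lower genes (4.99%), and a change of at least 8-fold by 109 higher and 46 lower genes. The 3 BHB and 3 Medium libraries did not overlap in 7083 genes (68.0%). With scaling by library size alone, 4296 genes were higher and 2601 lower, and the median of all genes lay 0.13 higher than under TMM on the log2 scale; changes are given relative to the TMM scale. Whether the libraries of a group came from separate cultures is not in the labels, and the p-values cover only the spread seen among them, which may be technical.

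**Figure D1:**
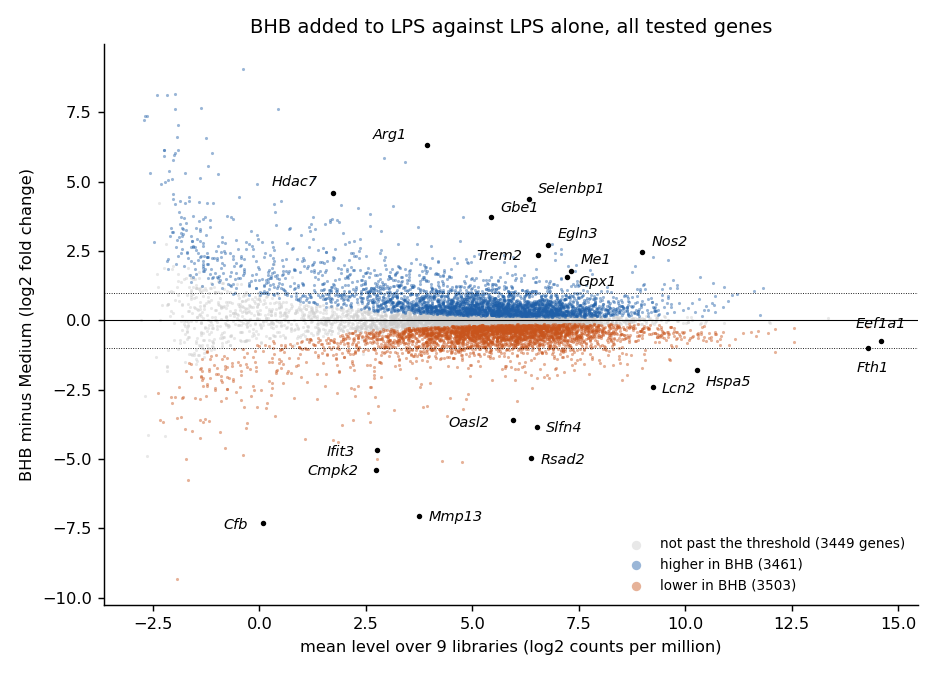
Change of each tested gene against its level. The x axis is the mean log2 CPM over the 9 libraries and the y axis the log2 fold change of BHB against Medium, with dotted lines at a 2-fold change and each point a gene. The called genes lie on both sides in near-equal numbers, 3461 higher and 3503 lower, and the genes far from 0 at high level include Nos2 above and Rsad2, Slfn4 and Lcn2 below.

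Among well-expressed genes (mean log2 CPM of at least 5) without overlap between the groups, those with the largest increases included Gbe1, Selenbp1, S100a4, Egln3, Trem2, Csf1r and Nos2. Gbe1, the glycogen branching enzyme (GRCm38, chr16:70313949-70569716), was at 51.1, 58.3 and 55.1 CPM in Control, at 10.6, 9.91 and 11.6 in Medium and at 129.8, 127 and 164 in BHB. All BHB libraries lay above both other groups, and the log2 fold change against Medium was 3.71 ± 0.11 (SE), or 13.1-fold, with an edgeR adjusted p of 4.33e-12. Selenbp1, a methanethiol oxidase, was at 119.7, 134 and 115 CPM in Control, at 14.99, 15.1 and 12.5 in Medium and at 283, 269 and 335 in BHB. All BHB libraries again lay above both other groups (log2 fold change 4.38 ± 0.10), and since the mouse genome holds a near-identical neighbour, Selenbp2, the split of reads between them is uncertain. S100a4, a calcium-binding protein tied to cell motility, was at 124, 138 and 139 CPM in Control, at 48.3, 41.0 and 38.9 in Medium and at 270.3, 293 and 299 in BHB. Its groups did not overlap either (2.75 ± 0.082).

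Egln3 and Egln1, prolyl hydroxylases that mark hypoxia-inducible factors for degradation and are themselves induced by them, rose together. Egln3 was at 63.5, 77.7 and 64.5 CPM in Control, at 48.1, 56.8 and 60.5 in Medium and at 407, 329 and 348 in BHB (log2 fold change 2.71 ± 0.10). For Egln1 the values were 60.1, 65.5 and 62.5 CPM in Control, at 25.5, 26.7 and 32.6 in Medium and at 144, 124 and 142 in BHB (2.28 ± 0.091). Bnip3, a mitophagy receptor and another known target, was at 139, 168 and 150.2 CPM in Control, at 53.8, 59.4 and 57.0 in Medium and at 307, 263 and 317 in BHB. Ndrg1, a stress-responsive gene of the same kind, was at 530.4, 572 and 538 CPM in Control, at 303, 287 and 285 in Medium and at 1469, 1279 and 1514 in BHB. For Bnip3 (2.38 ± 0.084) and Ndrg1 (2.28 ± 0.072), Medium lay below Control and BHB above both. The collagen-modifying enzymes P4ha2 (3.55 ± 0.20) and Plod2 (1.65 ± 0.074), which hypoxia also induces, rose too. The genes of this paragraph were named with their values known. No list of hypoxia-inducible genes was counted, so they do not show what share of such genes rose.

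The arginine genes included the pair that competes for this amino acid. Arg1, arginase, which turns arginine into ornithine and urea, was at 29.7, 29.0 and 29.9 CPM in Control, at 2.11, 1.09 and 0.534 in Medium and at 98.8, 94.3 and 117 in BHB. Its log2 fold change was 6.33 ± 0.21, or 80.7-fold, with an edgeR adjusted p of 1.3e-11. Nos2, the inducible nitric oxide synthase, was at 54.9, 47.4 and 52.0 CPM in Control, at 733, 695 and 624 in Medium and at 3821, 3449 and 4148 in BHB. Nos2 was higher and Arg1 lower in Medium than in Control, while both stood highest in BHB (2.48 ± 0.087 for Nos2). The list of arginine, nitric oxide and polyamine genes as a whole was mixed, with 10 higher and 8 lower of 26 tested and a median log2 fold change of 0.04. Slc7a1, the cationic amino acid transporter, rose (0.92 ± 0.17), as did Srm, spermidine synthase (0.58 ± 0.084), while Amd1, which feeds polyamine synthesis, fell (-0.70 ± 0.072).

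Csf1r, Trem2, Clec5a, Lyz2 and Arrb1, all expressed in myeloid cells, were among the 15 well-expressed genes of largest increase. Csf1r, the receptor for the growth factor that microglia need to survive, was at 226, 231 and 222 CPM in Control, at 42.3, 42.1 and 44.7 in Medium and at 268, 244 and 258 in BHB. Its BHB libraries lay above all Medium and all Control libraries (2.58 ± 0.058; edgeR adjusted p = 2.13e-13). Trem2, a lipid-sensing receptor of microglia, was at 244, 256 and 226 CPM in Control, at 26.2, 27.4 and 22.6 in Medium and at 134, 133 and 124 in BHB. Here BHB stood between the other groups (2.36 ± 0.076). Clec5a, a C-type lectin that signals through DAP12, was at 59.4, 59.8 and 55.5 CPM in Control, at 10.7, 11.3 and 14.998 in Medium and at 62.3, 70.9 and 61.7 in BHB (2.399 ± 0.11). Lyz2, lysozyme (2.18 ± 0.078), which shares sequence with Lyz1, and Arrb1, β-arrestin 1 (2.42 ± 0.076), rose as well. In the list of C-type lectins, Siglecs and CD300 receptors, which has 34 members in the table, 14 of 26 tested members were higher, 12 of them by at least 2-fold, and 4 were lower. The list took 0.223% to 0.237% of all counts in Control, 0.195% to 0.204% in Medium and 0.164% to 0.170% in BHB. Its share was thus lowest in BHB, although more members rose than fell. The median log2 fold change was 1.05, and 0.47 over the 19 members with at least 10 counts in every library. It was -1.02 for Medium against Control and 0.24 for BHB against Control; these contrasts share libraries, so the 3 values are not independent. Pirb (2.75 ± 0.14), Cd300lg (3.84 ± 0.20) and Lair1 (2.21 ± 0.16), an inhibitory collagen receptor, rose, while Clec4e, which recognizes mycobacterial glycolipid and dead cells, fell (-1.41 ± 0.074), as did Siglec1 (-0.61 ± 0.086).

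**Figure D2:**
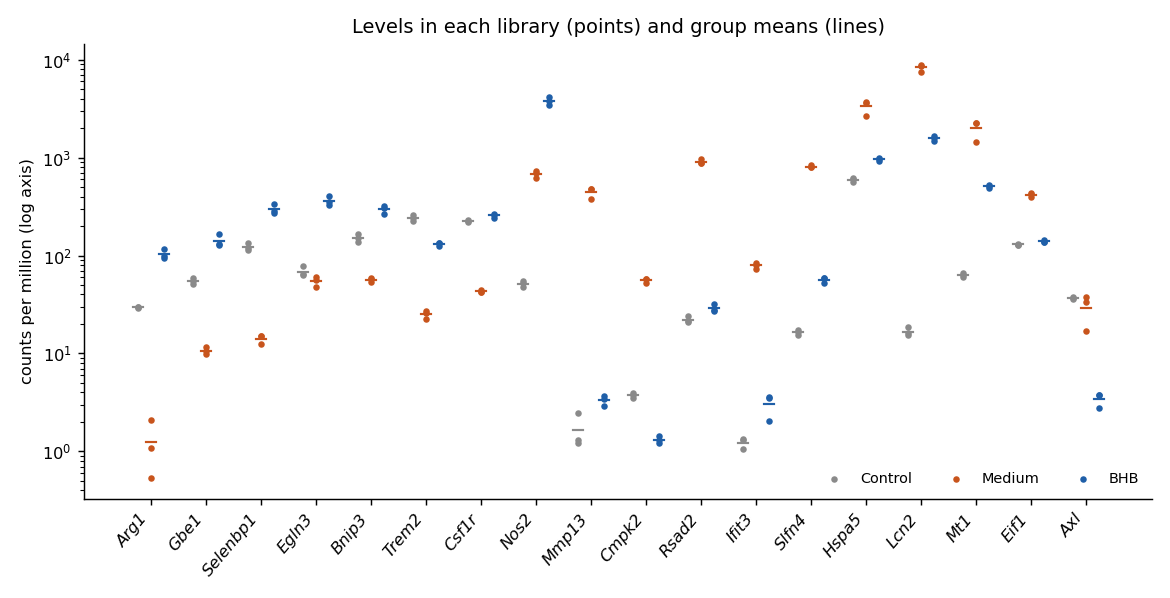
Levels of 18 named genes in each of the 9 libraries. The y axis is TMM-scaled CPM on a log axis, points are libraries and short lines the group means, in the order Control, Medium, BHB for each gene. Arg1, Gbe1, Selenbp1, Bnip3, Trem2 and Csf1r dip in Medium, Nos2 rises at both steps, and Mmp13, Cmpk2, Rsad2, Ifit3, Slfn4, Hspa5, Lcn2, Mt1 and Eif1 peak in Medium.

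Interferon-inducible genes gave the lowest medians of the 79 gene lists. Of 25 OAS, IFIT and antiviral effector genes 22 were tested, and of these 20 were lower and 0 higher, with a median log2 fold change of -1.69. Of the ISG15 pathway, Schlafen and other interferon-inducible genes, 34 of 37 were lower and 2 higher (median -1.04). All 7 guanylate-binding proteins and immunity-related GTPases in the table were tested and lower by at least 2-fold (median -3.67). A gene that passes the filter through its Medium level alone has to differ, so the counts were also taken over genes with at least 10 counts in every library, where 18 of 18, 34 of 36 and 4 of 4 tested members of the 3 lists were lower. Against Control the medians of the 3 lists were 2.21, 1.46 and 4.56 in Medium and 0.48, 0.16 and 0.49 in BHB, in the same order.

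Rsad2, viperin, which makes a chain-terminating nucleotide against viral polymerases (GRCm38, chr12:26442746-26456452), was at 20.9, 21.3 and 23.9 CPM in Control, at 884, 889.7 and 960.2 in Medium and at 27.7, 32.3 and 26.9 in BHB. Its log2 fold change was -4.97 ± 0.084, with an edgeR adjusted p of 2.1e-14, and BHB lay just above Control. Cmpk2, its neighbour and a mitochondrial nucleotide kinase, was at 3.80, 3.95 and 3.54 CPM in Control, at 52.3, 57.3 and 57.2 in Medium and at 1.23, 1.43 and 1.30 in BHB. Here the BHB libraries lay below Control as well (-5.39 ± 0.11). Slfn4, a Schlafen gene of activated myeloid cells, was at 17.4, 15.5 and 16.5 CPM in Control, at 840.1, 793 and 796 in Medium and at 52.5, 59.4 and 58.4 in BHB (-3.83 ± 0.068). Ifit3, a binder of viral RNA, was at 1.05, 1.31 and 1.34 CPM in Control, at 80.6, 84.7 and 73.3 in Medium and at 3.55, 3.57 and 2.07 in BHB (-4.69 ± 0.14). Both stayed above every Control library. Isg15, the ubiquitin-like modifier, was at 5.97, 6.95 and 6.50 CPM in Control, at 183, 181 and 144 in Medium and at 18.3, 21.7 and 15.7 in BHB (-3.19 ± 0.12). Oasl2 (-3.60 ± 0.10), Oas2 (-2.90 ± 0.079), Usp18, which removes ISG15 and damps the interferon receptor (-2.15 ± 0.10), Rtp4 (-3.44 ± 0.11) and Gvin1 (-2.45 ± 0.11) fell in the same way. Near-identical relatives make the split of reads uncertain within the OAS, IFIT, Schlafen and guanylate-binding families.

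Most genes of the IRF and STAT list, some of whose products act on interferon-inducible genes, were lower in BHB as well. A link between these changes was not tested. Irf7, which amplifies type I interferon, was at 61.2, 68.5 and 63.5 CPM in Control, at 862, 833 and 632 in Medium and at 194, 233 and 182 in BHB (-1.93 ± 0.11). Medium replicate 3 was the lowest of its group, and BHB lay between the other groups. Of the 25 tested IRF, STAT and interferon receptor genes, 19 were lower and 5 higher (median -0.56), with Stat2 (-1.66 ± 0.057) and Irf9 (-1.46 ± 0.087) among the lower and Stat6, the factor of interleukin-4 signalling, among the higher (0.73 ± 0.054). Cytosolic nucleic acid sensors gave 11 lower and 3 higher of 16. Ddx58, which encodes RIG-I (-1.18 ± 0.064), and Adar, an RNA editing enzyme (-1.14 ± 0.062), fell, and Dhx9, an RNA helicase, rose (1.27 ± 0.055). Of the 35 tested TRIM ubiquitin ligases 17 were lower and 6 higher, led by Trim25, which activates RIG-I (629, 643 and 613 CPM in Medium and 202, 210.3 and 204 in BHB; -1.61 ± 0.051). With scaling by library size alone 10 TRIM genes were lower.

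Promoter sequence of interferon-inducible genes is shown because the letters of their response element (GAAA, 2 bases of any kind, GAAA) lay in 18 of the 61 RefSeq promoter windows of the 3 interferon-inducible lists (29.5%), against 313 of 10831 windows of all tested genes (2.89%). A window runs from 250 bases before to 50 bases after an annotated start, both strands were searched, and a match is a description of the sequence, not of binding. The letters lay in 14.6% of the windows of genes called at least 4-fold lower (123 genes, 1.18% of those tested) and in 1.55% of those at least 4-fold higher (264 genes, 2.54%). The AP-1 letters TGACTCA lay in 13.6% and 5.81% of these windows, against 3.74% of all. The NF-κB form (GGG, 5 bases of any kind, CC), in 63.1% and 59.3%, lay under its share of all windows, 67.3%. The hypoxia response core ACGTG lay in 14.6% and 17.8%, under its share of all windows, 25.7%. The antioxidant form TGANNNNGC, in 47.6% and 43.0%, lay near its share of all windows, 42.8%. Among windows of genes called at least 2-fold lower the shares of the interferon and AP-1 letters were smaller, 6.94% and 6.55%. Windows of the same gene can overlap. The genes at least 4-fold lower include members of the interferon-inducible lists, such as Rsad2 and Ifit3. Their share of 14.6% is therefore not a separate observation from the 29.5% of those lists. The lists were compiled as interferon-inducible genes, so their share may follow from that choice, which was not tested. The stretches below are from RefSeq on GRCm38.p6, each on its gene's strand and 5′ to 3′, with the matches in capitals and TTTC blocks marking a match on the opposite strand. They are at chr12:26456543-26456592, minus strand (Rsad2), chr19:34583353-34583436, plus strand (Ifit3), chr19:34640765-34640833, plus strand (Ifit1), chr4:156200855-156200916, minus strand (Isg15), chr3:142620584-142620633, plus strand (Gbp2) and chr3:142559979-142560034, plus strand (Gbp3).
Rsad2: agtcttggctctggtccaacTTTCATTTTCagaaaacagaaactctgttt
Ifit3: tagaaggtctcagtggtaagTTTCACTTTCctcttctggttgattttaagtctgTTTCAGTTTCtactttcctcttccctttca
Ifit1: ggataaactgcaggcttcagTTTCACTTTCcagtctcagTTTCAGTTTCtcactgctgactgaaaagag
Isg15: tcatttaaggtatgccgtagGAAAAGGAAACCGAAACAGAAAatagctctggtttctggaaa
Gbp2: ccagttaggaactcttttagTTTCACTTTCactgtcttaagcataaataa
Gbp3: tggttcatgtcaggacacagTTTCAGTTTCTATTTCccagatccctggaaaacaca
The match of Rsad2 began 120 bases and that of Gbp2 59 bases before the start. Isg15 held 3 overlapping matches, the first 78 bases before its start, and Ifit1, Ifit3 and Gbp3 held 2 each. The window of Cmpk2, which lies beside Rsad2 and fell by a like amount, held none of these letters. The stretches shown are from genes with log2 fold changes from -3.19 (Isg15) to -4.97 (Rsad2). The same letters also lay before the starts of Ifitm2 (-0.43), Oas3 (-0.97), Igtp (-1.23) and Bst2 (-1.32), so genes with these letters fell by different amounts.

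Genes that protect and fold proteins moved in opposite directions in the endoplasmic reticulum (ER) and in the cytosol. Of the 28 tested ER chaperones and unfolded protein response genes, 20 were lower and 3 higher (5 higher by library size alone), with a median log2 fold change of -0.49. Hspa5, which encodes BiP, the main ER chaperone (GRCm38, chr2:34771970-34777547), was at 564, 620.0 and 602 CPM in Control, at 3699, 3614 and 2682 in Medium and at 975, 996 and 919 in BHB. BHB lay between Control and Medium, and Medium replicate 3 was nearest to BHB (-1.79 ± 0.10; edgeR adjusted p = 2.17e-09). Manf, a secreted ER stress factor, was at 74.1, 71.1 and 73.2 CPM in Control, at 289, 288 and 214 in Medium and at 65.6, 67.7 and 66.3 in BHB, slightly below Control (-1.99 ± 0.093). Pdia6, a disulfide isomerase, was at 188, 197 and 193 CPM in Control, at 616, 609 and 465 in Medium and at 215, 244 and 246 in BHB (-1.26 ± 0.093). For each of these 3 genes Medium lay far above the other groups, and BHB lay above Control for Hspa5 and Pdia6. Xbp1, a transcription factor of this response (-0.98 ± 0.056), Hyou1 (-0.98 ± 0.063), Dnajc3 (-1.14 ± 0.10) and Hsp90b1 (-0.89 ± 0.080) fell as well. P4hb, a disulfide isomerase that is also a subunit of collagen prolyl hydroxylase, rose instead (0.61 ± 0.080). The list took 0.620% to 0.636% of all counts in Control, 1.00% to 1.16% in Medium and 0.728% to 0.750% in BHB.

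Of the 32 tested cytosolic heat shock chaperones, 18 were higher and 6 lower (median 0.19). Hsp90aa1, the inducible HSP90, was at 1220.0, 1267 and 1247 CPM in Control, at 786, 705 and 825 in Medium and at 2368, 2222 and 2271 in BHB. It stood highest in BHB, with no overlap between any groups (1.57 ± 0.068). Hspa8, the constitutive HSP70, was at 2535, 2658 and 2648 CPM in Control, at 1625, 1576 and 1187 in Medium and at 2716, 2732 and 2778 in BHB (0.91 ± 0.095). Dnajb1, an HSP40 co-chaperone (0.99 ± 0.067), Ahsa1, which stimulates HSP90 (0.56 ± 0.066), and the chaperonin subunits Cct8 (0.51 ± 0.051) and Cct3 (0.49 ± 0.052) rose. The cytosolic list took 1.44% to 1.47% of counts in Control, 1.01% to 1.05% in Medium and 1.52% to 1.54% in BHB, lowest in Medium, where the share of the ER list was highest. The integrated stress response list was mixed, with 10 higher and 8 lower of 28. Gdf15, a stress-induced cytokine (-1.66 ± 0.080), and Cebpb (-1.65 ± 0.10) fell, while Slc7a5, the large neutral amino acid transporter, rose (1.62 ± 0.12).

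Promoters of ER chaperones are shown for a further motif, chosen after the values of the list were seen. The letters of the ER stress element (CCAAT, 9 bases of any kind, CCACG) lay in 8 of the 24 windows of the ER list (33.3%) and in 14 of the 10831 windows of all tested genes (0.129%). The stretches, in the same form as above, are at chr2:34772005-34772063, plus strand (Hspa5), chr12:17266471-17266529, plus strand (Pdia6), chr14:118937807-118937865, plus strand (Dnajc3), chr19:6046512-6046570, plus strand (Syvn1), chr15:88819500-88819558, plus strand (Creld2) and chr8:84847055-84847113, minus strand (Calr).
Hspa5: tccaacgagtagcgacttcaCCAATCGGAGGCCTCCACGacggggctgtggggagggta
Pdia6: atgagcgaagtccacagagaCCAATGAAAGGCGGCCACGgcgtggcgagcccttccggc
Dnajc3: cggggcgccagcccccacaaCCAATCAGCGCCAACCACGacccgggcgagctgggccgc
Syvn1: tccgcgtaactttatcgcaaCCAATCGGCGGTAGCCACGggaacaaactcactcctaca
Creld2: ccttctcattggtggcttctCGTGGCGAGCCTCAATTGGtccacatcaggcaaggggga
Calr: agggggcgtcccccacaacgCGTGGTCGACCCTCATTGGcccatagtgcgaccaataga
The log2 fold changes of these genes were -1.79, -1.26, -1.14, -0.78, -0.57 and -0.59 in the same order, so genes with the same letters fell by different amounts. Hsp90b1 held 2 matches. Canx, the ER lectin chaperone calnexin, held 1 and had a log2 fold change of only -0.16 ± 0.058 (edgeR adjusted p = 0.0272), whose call was lost when BHB replicate 1 or 2 or Medium replicate 1 or 2 was left out (adjusted p from 0.0549 to 0.0948) and with only the BHB and Medium libraries in the fit (0.0795). Its log2 fold change with scaling by library size alone was -0.03 (adjusted p = 0.577).

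Genes of protein synthesis divided by role. Of the 80 tested cytosolic ribosomal protein genes, 73 were lower and 2 higher, in a narrow band with a median log2 fold change of -0.47 and a middle 50% from -0.56 to -0.38. The list took 7.42% to 7.75% of all counts in Control, 8.13% to 8.85% in Medium and 6.46% to 6.85% in BHB. These shares rest on library totals and not on TMM. With scaling by library size alone 68 members were lower and 4 higher, with a median log2 fold change of -0.34. Rpl12 was at 1603, 1719 and 1600.3 CPM in Control, at 2426, 2305 and 2089 in Medium and at 1298, 1369.6 and 1411 in BHB (-0.74 ± 0.069). Rpl22l1, a paralog of Rpl22 (-1.15 ± 0.097), and Rps20 (-0.92 ± 0.068) fell further. Rpl37a, at 245, 245 and 201 CPM in Medium and 349, 358 and 341 in BHB, rose (0.60 ± 0.071); the other member called higher, Rpl3l, was below 1 CPM in every library. Processed pseudogenes of ribosomal proteins make these counts uncertain in the absolute. Eef1a1, the elongation factor that brings tRNA to the ribosome, was at 23403, 24116 and 23472 CPM in Control, at 35941, 35225 and 27606 in Medium and at 18435, 19897 and 20497 in BHB (-0.75 ± 0.10). Eif1, which keeps the scanning ribosome on the right start codon, was at 133, 129 and 128 CPM in Control, at 435, 423 and 392 in Medium and at 144, 139 and 136 in BHB (-1.58 ± 0.056).

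The factors that build ribosomes went the other way, with 40 of 65 higher and 9 lower (median 0.25). Ddx21 (1.05 ± 0.096), Bop1 (1.06 ± 0.086) and Ddx18 (0.98 ± 0.065), nucleolar processing factors, rose, and Utp14a fell (-0.88 ± 0.059). Initiation and elongation factors gave 20 higher and 10 lower of 49, with 16 lower when Medium replicate 3 was left out. Eif5a (0.90 ± 0.055), Eif5 (0.89 ± 0.051) and Eif3b (0.82 ± 0.055) rose and Eef2 fell (-0.76 ± 0.073). Mitochondrial ribosomal proteins gave 28 higher and 22 lower of 74 (median 0.01), and the aminoacyl-tRNA synthetases gave 11 and 7 of 26. These counts became, by library size alone, 32 and 13 (median 0.14) and 13 and 5. In the splicing lists 13 of 31 SR and hnRNP proteins were higher and 9 lower, with Hnrnpa1 (1.12 ± 0.058) and Hnrnpa2b1 (0.83 ± 0.057) at the top and Hnrnpc (-0.74 ± 0.052) at the bottom. By library size alone the SR and hnRNP counts were 16 and 6.

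**Figure D3:**
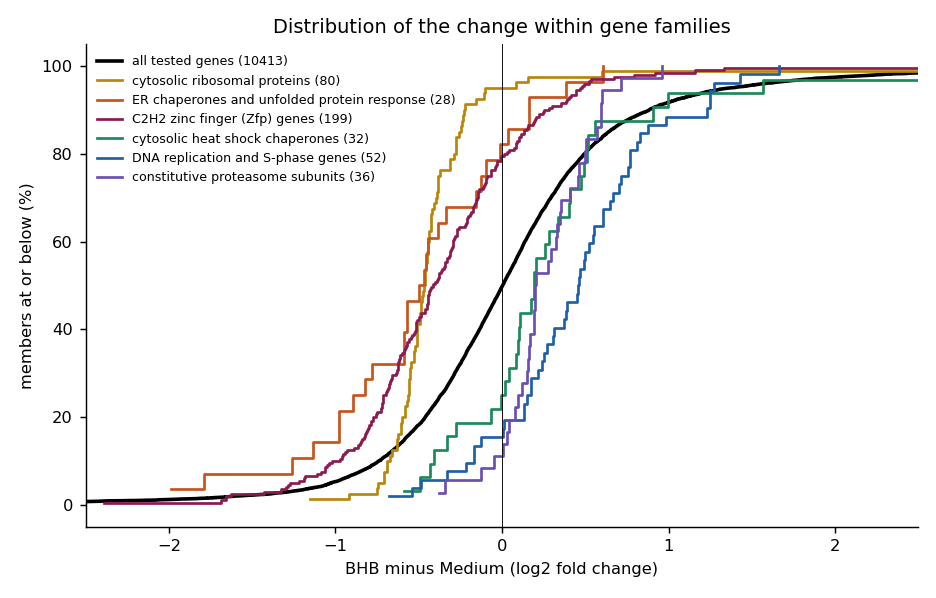
Cumulative distribution of the log2 fold change, BHB against Medium, within 6 gene families and over all 10413 tested genes (black). The x axis is the log2 fold change and the y axis the percentage of members at or below it. Ribosomal proteins, ER chaperones and Zfp genes lie left of the black line over most of their range, with medians of -0.47, -0.49 and -0.42, and replication genes lie right of it (median 0.46).

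DNA replication genes were mostly higher in BHB, and 26 of the 55 mitosis genes did not pass the test. Of the 52 tested DNA replication and S-phase genes 37 were higher and 6 lower (median 0.46), and of the 55 mitosis and spindle genes 25 were higher and 4 lower (median 0.17), or 8 lower without Medium replicate 3. The replication list gave 43 higher and 3 lower by library size alone, and the mitosis list 35 and 2. Pcna, the sliding clamp of DNA polymerase, was at 206, 206 and 223 CPM in Control, at 102, 102 and 95.8 in Medium and at 248, 237 and 228 in BHB (1.25 ± 0.058). Mcm7, a subunit of the replicative helicase, was at 127, 123 and 132 CPM in Control, at 26.8, 26.3 and 27.2 in Medium and at 62.9, 63.0 and 65.1 in BHB (1.25 ± 0.058). BHB lay above Control for Pcna and between the other groups for Mcm7. Tk1 (1.66 ± 0.12), Rrm2 (1.43 ± 0.11) and Rfc5 (1.23 ± 0.071) of the S-phase list and Kif20a (1.11 ± 0.091) and Bub1 (1.11 ± 0.082) of the mitosis list also rose. The replication list took 0.427% to 0.460% of counts in Control, 0.192% to 0.195% in Medium and 0.291% to 0.301% in BHB. In bulk RNA a larger share of cells in S phase and more of this RNA per cell cannot be told apart, and the same holds for every list here.

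The inhibitors and partners of the cell cycle kinases did not move as one, with 6 higher and 4 lower of 15. Cdkn1a, which encodes the kinase inhibitor p21, was at 69.1, 71.3 and 69.9 CPM in Control, at 115, 109.6 and 113 in Medium and at 335, 288 and 346 in BHB, so it rose along with the replication genes (1.52 ± 0.066). Cdk4 rose (0.82 ± 0.083) and its relative Cdk6 fell (-1.04 ± 0.059). Of 22 p53 target genes 8 were higher and 6 lower, or 3 lower without Medium replicate 1. Of the p53 targets 10 were higher and 1 lower by library size alone. Gadd45a rose (1.72 ± 0.11) and Plk2 fell (-1.40 ± 0.062).

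**Figure D4:**
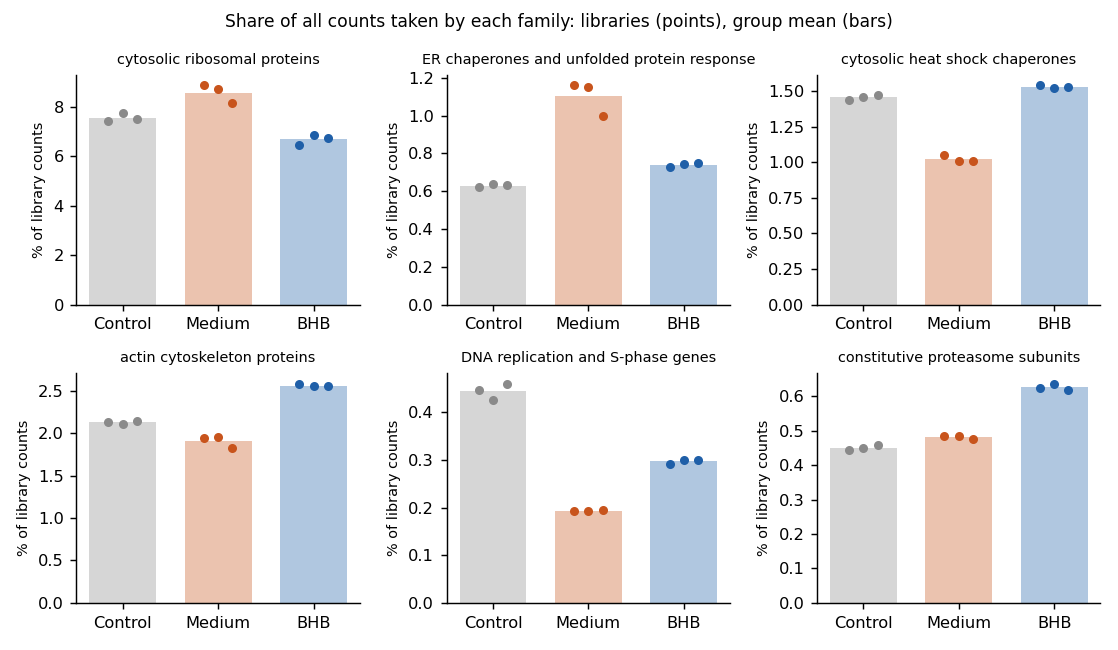
Share of all counts taken by 6 gene families in each library (points) with the group mean (bars, from 0), in percent of library counts. Medium stands highest for ribosomal proteins and ER chaperones (1.00% to 1.16% of counts against 0.728% to 0.750% in BHB) and lowest for heat shock chaperones, actin cytoskeleton and replication genes, and the constitutive proteasome is highest in BHB (0.619% to 0.636%).

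Subunits of the proteasome, which degrades ubiquitin-tagged proteins, divided by form. Of the 36 constitutive subunits 24 were higher and 2 lower (median 0.20), or 4 lower without Medium replicate 3, and none changed by 2-fold. Psmd2, a subunit of the regulatory cap, was at 355, 378 and 389 CPM in Control, at 465, 458 and 454 in Medium and at 763, 766 and 726 in BHB (0.71 ± 0.055). The 5 tested members of the immunoproteasome and its PA28 activator, which interferon induces, were all lower (median -0.55). Psme2 was at 43.5, 49.6 and 47.0 CPM in Control, at 117, 114 and 99.8 in Medium and at 58.9, 63.0 and 61.0 in BHB (-0.85 ± 0.071), and Psmb9 (-0.65 ± 0.093) and Psmb8 (-0.55 ± 0.085) fell by less. Lysosomal genes gave counts close to those of all genes, 16 higher and 19 lower of 54 (median 0.02), and 25 higher and 15 lower with scaling by library size alone. Arsb, arylsulfatase B, was at 407, 433 and 387 CPM in Control, at 56.7, 60.6 and 54.3 in Medium and at 205, 229 and 249.7 in BHB (2.00 ± 0.076). Ctsk, the collagen-cleaving cathepsin K (1.86 ± 0.081), and Psap, the source of saposins (0.96 ± 0.081), rose, while Grn, progranulin, fell (-0.88 ± 0.072). Autophagy genes gave 18 lower and 10 higher of 36 (median -0.16), and 13 and 13 with scaling by library size alone (median -0.03). Those lower included Sqstm1, the p62 cargo receptor, at 2310.5 CPM in Medium and 1470.3 in BHB on average (-0.65 ± 0.056), and Ulk1 (-0.78 ± 0.12). Atg3, which lipidates LC3, rose (0.98 ± 0.069).

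Genes for the use of the added ketone body were higher where they passed the test. Of the 12 tested ketone body and monocarboxylate transport genes 9 were higher and 0 lower (median 0.49). Bsg, basigin, the chaperone of monocarboxylate transporters at the membrane, was at 253, 252 and 258 CPM in Control, at 251, 246 and 218 in Medium and at 441, 483 and 526 in BHB (1.02 ± 0.071). Oxct1, the enzyme that commits acetoacetate to oxidation, was at 517, 527 and 525 CPM in Control, at 261, 253 and 235 in Medium and at 333, 361 and 386 in BHB. It rose (0.53 ± 0.063), but all BHB libraries stayed below Control. Acat1, the next enzyme (0.64 ± 0.081), and the transporter genes Slc16a3 (0.74 ± 0.075), Slc16a6 (1.03 ± 0.11) and Slc16a1 (0.30 ± 0.066) rose. Hcar2, the receptor for BHB, was at 62.5, 66.8 and 64.1 CPM in Control, at 126, 128 and 125 in Medium and at 129.7, 140.2 and 145 in BHB (0.13 ± 0.055; edgeR adjusted p = 0.0501). It stayed short of the threshold here and passed it with RLE size factors, library sizes alone, at least 10 counts in every library, limma-voom or DESeq2 (adjusted p from 0.00111 to 0.0494) and without BHB replicate 1 (0.0192). Bdh1, which interconverts BHB and acetoacetate, was not among the 12 tested genes, so no p-value goes with its values. It was listed at 0 in all Medium libraries and held 34 counts over the BHB libraries. Against a floor of 3 counts over the group this is at least 11.3-fold more, if the 0 stands for no reads. A 0 in this table does not always do so, as described below.

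Of the 14 tested glycogen genes 10 were higher and 2 lower (median 0.68). Gys1, glycogen synthase, was at 124, 116 and 109 CPM in Control, at 83.2, 84.0 and 94.1 in Medium and at 356, 310.0 and 354 in BHB (1.97 ± 0.073). Pgm1, phosphoglucomutase, rose (1.27 ± 0.059). Epm2a, the glycogen phosphatase laforin, was at 6.17, 7.65 and 6.89 CPM in Control, at 1.11, 0.588 and 1.41 in Medium and at 17.7, 14.3 and 20.3 in BHB (4.05 ± 0.23). Gys1 and Gbe1, which build glycogen, were thus both higher. Gsk3b, the kinase that inhibits glycogen synthase, fell (-0.40 ± 0.057).

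Of the 14 pentose phosphate and NADPH-making genes 9 were higher and 1 lower (median 0.46). The lower call was lost with DESeq2, either other scaling, the replicate block, unfiltered counts or a fit of only the BHB and Medium libraries, and without BHB replicate 1 or 3 or Medium replicate 1 or 2. Me1, the cytosolic malic enzyme, was at 129, 142 and 125 CPM in Control, at 94.0, 91.3 and 99.5 in Medium and at 320.3, 315 and 348 in BHB (1.79 ± 0.065), and its mitochondrial relative Me2 was at 62.5, 61.4 and 64.9 CPM in Control, at 28.6, 31.1 and 38.5 in Medium and at 122, 114 and 145 in BHB (1.96 ± 0.10). Both stood highest in BHB. Tkt, transketolase (0.92 ± 0.054), and Taldo1, transaldolase (0.56 ± 0.060), rose. Serine, glycine and one-carbon enzymes gave 12 higher and 3 lower of 21, or 15 and 1 by library size alone, with Mthfd1l (1.51 ± 0.075) and Shmt1 (1.01 ± 0.090) up. Among mitochondrial carriers 20 of 40 were higher and 7 lower. Slc25a10, the dicarboxylate carrier (1.35 ± 0.10), Slc25a13, the aspartate-glutamate carrier (1.06 ± 0.059), and Ucp2 (1.00 ± 0.056) rose by about 2-fold or more, while Slc25a37, mitoferrin, fell (-0.96 ± 0.062).

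The counts for the respiratory chain depended on the scaling. Complex I subunits gave 8 higher and 10 lower of 34 (median -0.02), complexes II and III 2 and 5 of 13 (median -0.06; 3 lower without BHB replicate 1 or 2 or Medium replicate 1 or 2), and complex IV with cytochrome c 5 and 3 of 14 (median 0.10). With scaling by library size alone complex I gave 11 higher and 5 lower (median 0.11), complexes II and III 5 and 2 (median 0.071), and complex IV 9 and 2 (median 0.23). TCA cycle enzymes gave 9 higher and 4 lower of 25, or 16 and 3 by library size alone. Acod1, which makes itaconate from a TCA cycle intermediate in LPS-treated cells, fell (-0.78 ± 0.075), from 1978 to 1151 CPM on average against 108 in Control. Fatty acid oxidation gave 9 higher and 6 lower of 28, or 14 and 4 by library size alone, with Acaa2 (0.90 ± 0.10) and Hadh (0.81 ± 0.076) up and Cpt1a, the entry enzyme, down (-1.17 ± 0.14).

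Antioxidant genes were mostly higher. Of the 34 tested thioredoxin, peroxiredoxin and glutathione genes 20 were higher, 9 by at least 2-fold, and 6 lower (median 0.37). Gpx1, glutathione peroxidase 1, was at 127, 127 and 127 CPM in Control, at 97.6, 91.9 and 97.9 in Medium and at 269.8, 291 and 282 in BHB (1.55 ± 0.053; edgeR adjusted p = 1.92e-11). Prdx1, a peroxiredoxin, was at 353, 361 and 374 CPM in Control, at 422, 425 and 365 in Medium and at 902, 1083 and 1029.6 in BHB (1.32 ± 0.077). Both were highest in BHB. Gss, glutathione synthetase (1.11 ± 0.088), Mgst2 (1.23 ± 0.056) and Glrx, glutaredoxin (1.04 ± 0.067), rose too. Txnip, which binds and inhibits thioredoxin, also rose (1.18 ± 0.19), and Sod2, the mitochondrial superoxide dismutase that LPS induces, fell (-0.75 ± 0.094).

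Several iron and metal genes that stood high in Medium fell. Fth1, the ferritin heavy chain that stores iron, was at 9957, 10539 and 9927 CPM in Control, at 43461, 42264 and 33987 in Medium and at 19174, 20571 and 19754 in BHB. BHB lay between the other groups (-1.01 ± 0.096), and Medium replicate 3 was nearest to BHB. Lcn2, lipocalin 2, which withholds iron from bacteria, was at 16.1, 15.6 and 18.5 CPM in Control, at 8716, 8892 and 7565 in Medium and at 1488, 1652 and 1601 in BHB (-2.41 ± 0.085). Mt1, metallothionein 1, was at 63.0, 65.7 and 60.1 CPM in Control, at 2238, 2274 and 1439 in Medium and at 522, 485 and 515 in BHB (-1.97 ± 0.13). For all 3 genes BHB lay between Control and Medium. Slc40a1, the iron exporter ferroportin, was at 104, 101 and 94.3 CPM in Control, at 113, 117 and 103 in Medium and at 31.9, 36.0 and 35.4 in BHB, the lowest of the groups (-1.69 ± 0.070), and Cp, ceruloplasmin, its partner oxidase, fell too (-2.41 ± 0.11). The transferrin receptor Tfrc, for iron uptake (0.80 ± 0.053), Alas1, the first enzyme of heme synthesis (1.24 ± 0.077), and Slc11a1, the phagosomal metal transporter (1.07 ± 0.056), rose. The iron and heme list as a whole was split, 11 higher and 12 lower of 33, or 14 and 8 by library size alone. The list of metallothioneins and metal transport genes was split too, with 8 higher and 9 lower of 22 (median 0.06).

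Lipid genes moved in both directions within each list, though not always evenly. Fatty acid synthesis and desaturation genes leaned higher, with 9 higher and 3 lower of 17 (median 0.20). Sterol synthesis gave 9 higher and 7 lower of 23, or 11 and 4 by library size alone, and lipid droplet and triglyceride genes 6 and 6 of 18. Lpl, lipoprotein lipase, rose (1.28 ± 0.083) from 418 to 1012 CPM on average, against 1721 in Control, and Dgat2, which makes triglyceride, rose by 2.097 ± 0.16. Plin2, the lipid droplet coat protein (-1.02 ± 0.069), and the fatty acid binding protein Fabp4 (-0.998 ± 0.095) fell. Among sterol efflux genes Abca1 rose (0.90 ± 0.11) and Abcg1 fell (-1.22 ± 0.060). Of 18 prostaglandin and leukotriene genes 9 were higher and 4 lower. Ptgs1 (1.34 ± 0.059), Ptgs2 (0.71 ± 0.12), which encode the cyclooxygenases, and Alox5ap, which leukotriene synthesis needs (1.02 ± 0.082), rose, and the prostacyclin receptor Ptgir fell (-1.43 ± 0.094).

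Genes of adhesion, matrix and the cytoskeleton included some of the largest changes in either direction. Mmp13, collagenase 3, was at 1.32, 2.45 and 1.23 CPM in Control, at 474, 472 and 379 in Medium and at 3.65, 2.92 and 3.41 in BHB. Its log2 fold change was -7.05 ± 0.15, a 133-fold difference, and BHB lay just above Control. Mmp9, gelatinase B, was at 27.4, 23.6 and 21.9 CPM in Control, at 20.3, 15.7 and 15.6 in Medium and at 75.6, 90.6 and 89.2 in BHB, and moved the opposite way, to above Control (2.30 ± 0.11). Of the 32 integrins and adhesion molecules 16 were higher and 6 lower (median 0.28), with Itgax (1.41 ± 0.12) and Itga6 (1.05 ± 0.077) up and Itgal down (-1.03 ± 0.058). Of the TREM and TAM list 9 were higher and 3 lower of 15. Axl, a TAM receptor for dying cells, was at 36.4, 37.4 and 36.1 CPM in Control, at 33.1, 38.0 and 16.8 in Medium and at 3.79, 2.79 and 3.73 in BHB, with Medium replicate 3 the lowest of its group (-3.09 ± 0.24), while its relative Mertk rose (1.00 ± 0.16).

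Of the 54 actin cytoskeleton genes 28 were higher and 7 lower (median 0.21), or 12 lower without Medium replicate 3. Gsn, gelsolin, which severs filaments, was at 877, 957 and 854 CPM in Control, at 170.0, 168 and 147 in Medium and at 642, 601 and 644 in BHB (1.96 ± 0.071). Cfl1, cofilin (0.89 ± 0.078), Pfn1, profilin (0.68 ± 0.063), and Actb, β-actin (0.71 ± 0.070), rose by less. Xirp1, an actin-binding protein known from muscle, was at 10.7, 9.28 and 7.58 CPM in Control, at 0.969, 0.966 and 0.725 in Medium and at 53.9, 51.5 and 47.9 in BHB (5.84 ± 0.16). Tubulins and kinesins gave 21 higher and 8 lower of 46, or 13 lower without Medium replicate 3, with Tubb6 (1.28 ± 0.049) and Tuba1b (1.07 ± 0.055) up. Anxa2, a membrane-binding annexin, was at 623, 699 and 643 CPM in Control, at 583, 578 and 536 in Medium and at 1568, 1479.9 and 1645 in BHB (1.47 ± 0.067). Among collagen and matrix genes 13 of 30 were higher and 12 lower. Agrn, agrin, fell (-1.85 ± 0.10).

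Genes of histone deacetylation were more often higher, and those of the other histone enzymes more often lower. Of the 29 histone deacetylase and corepressor genes 15 were higher and 6 lower (median 0.23). Hdac7, a class IIa deacetylase, was at 1.36, 1.75 and 1.70 CPM in Control, at 1.14, 0.630 and 0.992 in Medium and at 26.0, 20.6 and 21.6 in BHB. The BHB libraries stood far above the other groups, which lay below 2 CPM (4.599 ± 0.19). Hdac9 (1.46 ± 0.13) and Hdac2, of class I (0.50 ± 0.076), rose as well. Of the 66 acetyltransferase, methyltransferase and demethylase genes 38 were lower and 11 higher (median -0.24), with 20 higher and 28 lower under scaling by library size alone and 7 higher without BHB replicate 1. Kdm6a, a demethylase of H3K27, was at 70.6, 73.0 and 71.1 CPM in Control, at 168, 168 and 132 in Medium and at 63.5, 59.0 and 61.0 in BHB (-1.35 ± 0.081). Ep300, an acetyltransferase (-1.05 ± 0.060), and Kmt2a, a methyltransferase of H3K4 (-0.94 ± 0.065), fell too.

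The largest family tested, 199 C2H2 zinc finger genes named Zfp, many of which are DNA-binding repressors, had 112 lower and 14 higher members (56.3% and 7.04%; median -0.42). With scaling by library size alone 85 were lower and 22 higher, and 9 were higher without Medium replicate 1. Zfp871 was at 106, 102 and 102 CPM in Control, at 255, 247 and 216 in Medium and at 109.9, 98.5 and 124 in BHB (-1.11 ± 0.080), and Zfp629 (-2.39 ± 0.14) and Zfp26 (-1.27 ± 0.081) fell as well. Across all genes the log2 fold change fell with length, from a median of 0.076 and 0.089 in the first and second of 5 classes by exon length, the shortest, to -0.12 in the longest. Zfp genes lay lower than the other genes in each of the 5 length classes, with medians from -0.28 to -0.51 against 0.096 to -0.12. The chromatin enzymes did so mainly in the longest class, -0.49 against -0.12, which holds 32 of them. The part of length in these values was not tested further. Rbbp6, a ubiquitin ligase that processes mRNA ends, was at 153, 148 and 159 CPM in Control, at 182, 182 and 228 in Medium and at 45.4, 45.9 and 48.5 in BHB (-2.08 ± 0.082).

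Genes that end inflammatory signals were more often lower than higher. Of the 36 SOCS, MAP kinase phosphatase and mRNA decay genes 21 were lower and 6 higher (median -0.30). Zfp36, which encodes tristetraprolin, a factor that degrades cytokine mRNA (-1.50 ± 0.10), Socs3, an inhibitor of cytokine receptors (-1.72 ± 0.15), and Dusp4, a MAP kinase phosphatase (-1.02 ± 0.058), fell. Of the 31 AP-1 and immediate early genes 15 were lower and 6 higher, or 12 and 9 by library size alone. Junb fell (-1.18 ± 0.060) and Fos rose (1.22 ± 0.12), at 8.76, 8.23 and 8.63 CPM in Medium and 19.3, 20.8 and 19.6 in BHB. Toll-like receptor genes gave 7 higher and 11 lower of 23, or 7 and 8 by library size alone. Cd14, which hands LPS to its receptor, fell (-0.67 ± 0.054), and Cd180, a relative of Toll-like receptor 4 that restrains it, rose (1.57 ± 0.077). Aoah, the enzyme that inactivates LPS, fell below Control (65.8, 70.1 and 64.3 CPM in Control, at 228, 227 and 207 in Medium and at 46.0, 54.9 and 56.9 in BHB; -2.07 ± 0.077). Cfb, complement factor B, was at 37.7, 39.3 and 24.04 CPM in Medium and 0.140, 0.292 and 0.181 in BHB (-7.31 ± 0.41), with most of its exon bases shared with Gm20547, and C3, the central complement protein, fell as well (-1.27 ± 0.092). The complement list as a whole was split, with 4 higher and 4 lower of 14 tested (median -0.03). It took 0.163% to 0.178% of counts in Medium and 0.183% to 0.2% in BHB. Circadian clock genes gave 11 lower and 4 higher of 20, with Clock (-0.94 ± 0.074) and Nr1d2 (-1.10 ± 0.11) down and Nfil3 up (1.49 ± 0.081). Inflammasome genes were split, 8 higher and 6 lower of 19.

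**Figure D5:**
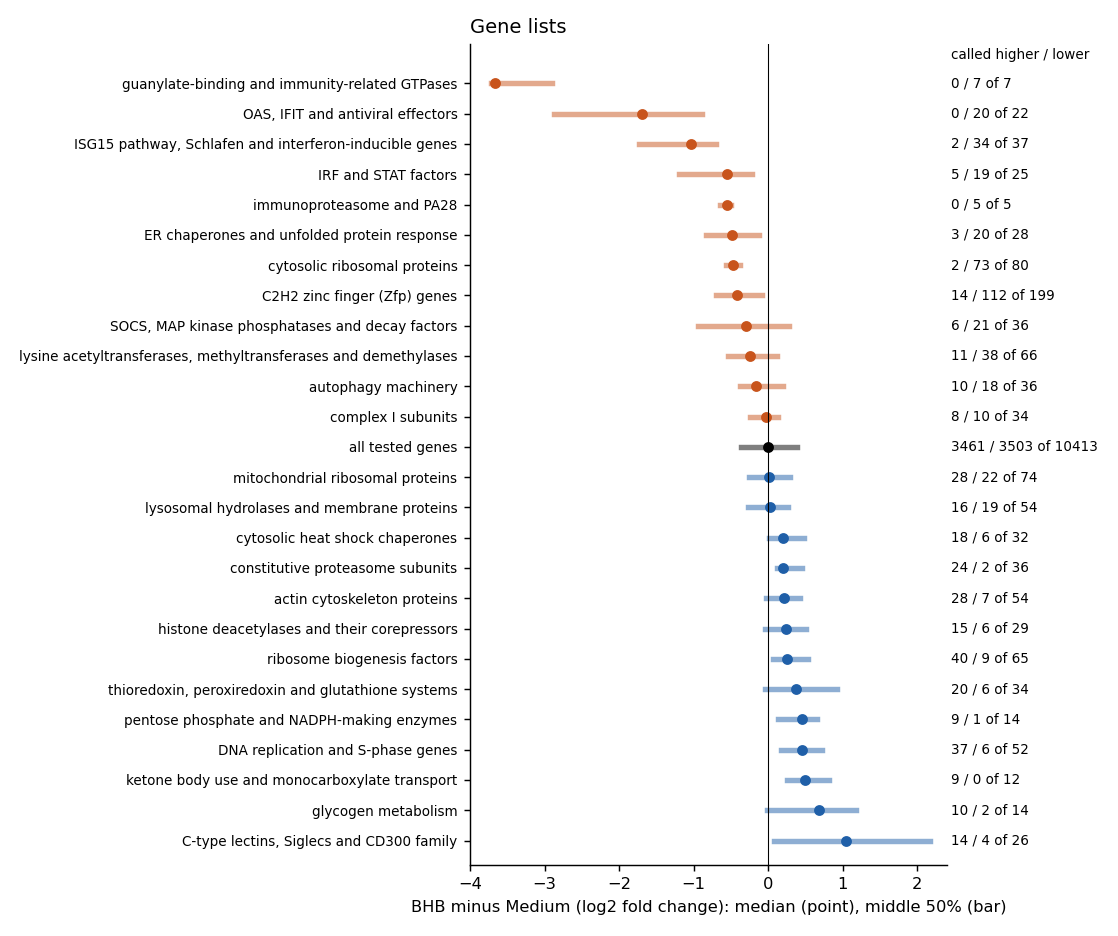
Change of 25 gene lists and of all tested genes. Points are the median log2 fold change, BHB against Medium, bars span the middle 50% of members, and the numbers at right give members called higher and lower of those tested. The interferon-inducible lists lie lowest (medians -3.67, -1.69 and -1.04) and the lectin and glycogen lists highest (1.05 and 0.68). The lectin median was 0.47 over its 19 members with at least 10 counts in every library. With that filter it lay under the glycogen list (0.69) and the ketone body list (0.5).

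Several other lists moved in both directions. Potassium, chloride and TRP channels gave 20 higher and 12 lower of 46 tested, purinergic receptors 6 and 5 of 20, and Rab GTPases 13 and 17 of 42. The channels gave, by library size alone, 25 higher and 5 lower (median 0.40), the purinergic receptors 8 and 4, and the Rab GTPases 16 and 12. Piezo1, a channel opened by membrane stretch, was at 326, 301 and 304 CPM in Control, at 1143, 1095 and 883 in Medium and at 465, 446 and 426 in BHB (-1.22 ± 0.084). Trpm2, a channel gated by ADP-ribose, was at 27.9, 26.6 and 25.9 CPM in Control, at 7.13, 6.93 and 9.77 in Medium and at 23.2, 23.8 and 29.6 in BHB (1.68 ± 0.13). Trpm2 came back to about its Control level and Piezo1 stayed above it. Ada, adenosine deaminase (2.92 ± 0.18), Rab44 (3.36 ± 0.19), and Dock8, an exchange factor for Cdc42 (1.54 ± 0.064), rose, and Adora2a, an adenosine receptor (-2.79 ± 0.24), and Rab20 (-2.01 ± 0.083) fell. Semaphorins, plexins and ephrins gave 10 higher and 13 lower of 31, with the guidance receptors Nrp1 up (1.15 ± 0.067) and Plxna1 (-1.06 ± 0.067) and Plxnd1 (-1.25 ± 0.074) down. The S100, annexin and galectin list gave 11 and 8 of 24. Anxa1 (1.43 ± 0.087) and S100a6 (0.85 ± 0.077) rose with S100a4 and Anxa2, and Lgals9 (-1.62 ± 0.10) and Lgals3bp (-1.54 ± 0.066) fell.

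Growth and survival pathways also moved in both directions. The PI3K, AKT and mTOR list gave 19 higher and 17 lower of 45, cAMP and cGMP signalling 10 and 14 of 43, the TGF-β and BMP list 7 and 15 of 31, and the BCL-2 family 6 and 4 of 16. By library size alone they gave 22 and 12, 11 and 10, 9 and 12, and 8 and 2. Akt1 rose (0.57 ± 0.050), and Rictor, a subunit of mTOR complex 2 (-1.04 ± 0.074), and Tsc1, a brake on mTOR complex 1 (-1.05 ± 0.076), fell. Prkar2b, a regulatory subunit of protein kinase A, was at 25.4, 24.3 and 26.1 CPM in Control, at 15.6, 15.8 and 18.8 in Medium and at 72.5, 72.2 and 71.0 in BHB (2.101 ± 0.078). Bcl2l11, the death-promoting protein BIM (-1.19 ± 0.070), and Bcl2l1, the protective BCL-XL (-0.79 ± 0.070), both fell, and Bnip3l, a mitophagy receptor like Bnip3, rose (0.66 ± 0.076). Of the V-ATPase subunits, which acidify lysosomes, 8 of 19 were higher and 2 lower, or 13 and 2 by library size alone, with Atp6ap2 (1.05 ± 0.066) up and Tcirg1 (-0.76 ± 0.090) down. Among mitochondrial import proteins 13 of 29 were higher and 3 lower, or 7 lower without Medium replicate 3, and Tomm40, the pore of the outer membrane (1.16 ± 0.089), and Hspd1, the matrix chaperonin (0.72 ± 0.064), rose.

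In 28 genes a group was listed at 0 in all its libraries while the other held at least 30 counts over its libraries, 23 at 0 in Medium and 5 at 0 in BHB; the genes named here from among them were chosen after their values were seen. Grin1, a subunit of the NMDA glutamate receptor, held 203 counts over the BHB libraries and was listed at 0 in Medium, at least 67.3-fold more against a floor of 3 counts over the group. Il33, an alarmin cytokine, held 109 counts in BHB (at least 36.1-fold) and Bace1, the β-secretase of amyloid precursor protein, 108 (at least 35.8-fold). Gbp5, by contrast, held 226 counts in Medium and was listed at 0 in BHB, at least 75.7-fold lower. These bounds are on counts per library total and cover counting error only. Over the whole table the value 1 occurs 335 times, 2 occurs 1675 times and 0 occurs 12323 times, and 3 times a library is listed at 0 although the other replicates hold 100 counts or more each. A 0 in this table is therefore not always the absence of reads.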

How the data were processed

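The authors deposited 1 table of counts per gene, as whole numbers, for the 9 RNA-seq libraries. Their methods name strand-specific STAR alignment with GRCm38 and GENCODE M21, while the submitters' processing notes name Trimmomatic, HISAT2, StringTie and FastQC 0.11.5. The sources used here do not give the counting step. No other columns of samples were present.

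Groups follow the labels. Counts were filtered (filterByExpr), scaled by TMM and fitted in 1 model of 3 groups with edgeR 4.0.16 (glmQLFit and glmQLFTest) in R 4.3.3. p-values were adjusted by Benjamini-Hochberg over the 10413 tested genes, and a gene was called at 0.05. Values after ± are standard errors of the log2 fold change on the log2 scale. The fit was also run on simulated counts in which few genes changed. That run does not test the scaling where 66.9% of genes are called, and no result here rests on it. Alternatives used DESeq2 1.42.0, limma 3.58.1 (voom), other scalings and filters, a replicate block and single libraries left out. The gene lists were compiled by hand from gene families, and the comparison, its members and the lists were chosen with earlier results of these data known.

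Genes were named where they were the 15 of largest change per direction at a mean log2 CPM of at least 5 without overlap, the 10 of smallest p per direction, the 4 of smallest p or highest level of each list, all of a list of at most 12, or the 5 of largest CPM difference per direction. Of the 547 genes that met the rule, the text names 190 and leaves out 357, a choice made after their values were seen, and it names 39 more outside the rule, chosen likewise. Of the named genes, 77 share exon bases with another gene, 62 of them on the opposite strand. Promoter windows were found for 8408 of the 10413 tested genes.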

Additional observations from a re-analysis of the deposited data

How the results depend on the processing

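The count of called genes, 6964, ranged from 6388 to 7382 when a library was left out, the highest without Medium replicate 3 and the lowest without BHB replicate 2, and that of genes called with at least a 2-fold change from 1295 to 1422. It was 6965 with DESeq2, 6984 with limma-voom and 6518 with only the BHB and Medium libraries in the fit. A test against a 2-fold change called 632 genes, 397 higher and 235 lower, in place of 6964 at any size and 1326 by a 2-fold point estimate, since it asks more of each gene. With at least 10 counts in every library 984 genes were called with at least a 2-fold change. A fit with the replicate number as a block called 6884 genes (3429 higher and 3455 lower), 1312 of them by at least 2-fold. Deviations of same-numbered BHB and Medium libraries correlated at -0.0458, -0.0248 and -0.0592, which gives no sign of pairing by number. With 3 replicates a weak shared effect could go unseen, so these values cannot show that the libraries were prepared without pairs. No named gene changed direction under any alternative run in which it was tested. Besides the test against a 2-fold change, the calls of Canx, Vwf and Hcar2 alone moved across the threshold. Some named genes of low count were left out by the filter of at least 10 counts in every library. A few were also left out in the fit of only the BHB and Medium libraries, so those runs say nothing on them. With scaling by library size alone the changes of all genes shifted by 0.13 on the log2 scale, and lists near 0 (complexes I to III, splicing, iron, sterol efflux, integrated stress response, matrix, Rab and cAMP lists) took a median of the other sign. Genes of a few counts per library are limited by depth, and their fitted fold changes depend on the prior count.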
